A study of Sus scrofa with 8 samples.

Results

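miR-202 is a microRNA whose hairpin gives 2 mature strands, ssc-miR-202-5p and ssc-miR-202-3p, and both were followed here in the corpus luteum of pregnant and cyclic gilts. Members were taken by name: every non-control probe of the array whose target is named miR-202, whatever the species or strand. This gave 2 of 686 targets, 4 of 1683 probes and 40 of 13720 spots on every array. The corpus luteum is the ovarian gland that secretes progesterone after ovulation. Tissue of this gland from crossbred gilts of a single commercial herd, 6 to 8 months old, was compared at day 14 between animals left without insemination (cyclic, 4 samples) and animals inseminated 12 and 24 hours after the onset of their second estrus was detected (pregnant, 4 samples). The labels state no treatment other than insemination. Each sample was hybridised alone to a 1-colour Agilent array, and the labels number the samples as biological replicates.

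Like other microRNAs, miR-202 is cut from a hairpin precursor. Either strand can be loaded into an Argonaute protein, which it then guides to partly complementary messenger RNAs through its seed near the 5′ end. miR-202 is known as a gonad-enriched microRNA of vertebrates, found in the somatic cells of testis and ovary such as Sertoli and granulosa cells, and luteal cells descend in part from granulosa cells. The 3p strand shares most of its seed with the let-7 family, a group of differentiation-linked microRNAs, and the 5p strand has an unrelated seed. In the order of genes that RefSeq gives for the pig (assembly Sscrofa11.1), MIR202 lies between UTF1, a gene of undifferentiated embryonic cells, and ADAM8, a membrane metalloprotease gene.

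The arrays were alike in quality. The share of spots well above background was 22.8% to 28.8%, 0 spots were saturated, and the 75th percentile of intensity used to scale each array was 189 to 316. Tests covered the 163 porcine and 49 other-species targets detected on at least 4 arrays. Array profiles correlated across these targets with r from 0.943 to 0.991. One array stood apart from its group. Cyclic replicate 1 correlated more closely with the pregnant arrays (mean r = 0.984, across targets) than with the other cyclic arrays (0.960). Each of the other 3 cyclic arrays correlated more closely with the cyclic arrays (0.972 to 0.978) than with the pregnant ones (0.949 to 0.964). Of the tested targets, 116 lay within the range of the pregnant arrays on cyclic replicate 1, against 62 to 72 on the other cyclic arrays. The labels record nothing that sets this gland apart. Whether its label is right, and whether it was at the same luteal stage as the other cyclic glands, was not tested, so the data do not say which set of values, with or without it, describes the cyclic gland. Calls are therefore given both ways. The labelled tissue could be checked only by exclusion, since all targets were microRNAs: 8 targets of a skeletal muscle and liver list (miR-1, miR-122, miR-133 and miR-206) were on the array, and 8 were detected on no array, against 65% of all targets.

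The 3p strand was well above background in every gland. Intensity is given in the linear units of the scanner as the mean of up to 10 spots of the brighter of its 2 probes, A_38_P00037435. It was 110, 51.2, 33.4 and 56.3 in cyclic replicates 1 to 4 and 96.3, 137, 97.8 and 56.8 in pregnant replicates 1 to 4. Spots of this probe varied within an array with a coefficient of variation of 7.81% to 12.3%. The other probe, A_38_P00037434, read 82.4, 43.9, 28.7 and 46.5 in the cyclic glands and 73.4, 102, 70.3 and 43.3 in the pregnant ones. Both probes ranked cyclic replicate 1 first among the cyclic arrays and pregnant replicate 2 first among the pregnant arrays.

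The 5p strand was close to the limit of detection. Its brighter probe, A_38_P00020205, read 13.7, 11.3, 9.57 and 19.0 in cyclic replicates 1 to 4 and 10.64, 10.71, 12.8 and 7.95 in pregnant replicates 1 to 4. The 99th percentile of 434 negative control spots lay between 4.79 and 8.28 on the same arrays. At least 0.5 of the probe's spots were well above background, the rule for detection here, on 5 arrays: cyclic replicates 1 and 4 and pregnant replicates 1, 2 and 3. Cyclic replicate 3 and pregnant replicate 4, without detection, had the lowest 75th percentiles of intensity, 193 and 189. Cyclic replicate 2, also without detection, had 297. In all, 27 of 40 spot readings passed in the cyclic group and 25 of 38 in the pregnant group, with spot coefficients of variation from 7.42% to 27.1%. The other 5p probe, A_38_P00020204, was detected on 1 array, cyclic replicate 4, and its scaled signal was at or under the floor of 0.0346 on 7 of the 8 arrays, so it gives no order among them. Signals of the 2 strands come from different probes, so these intensities do not say which strand was more abundant.

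**Figure D1:**
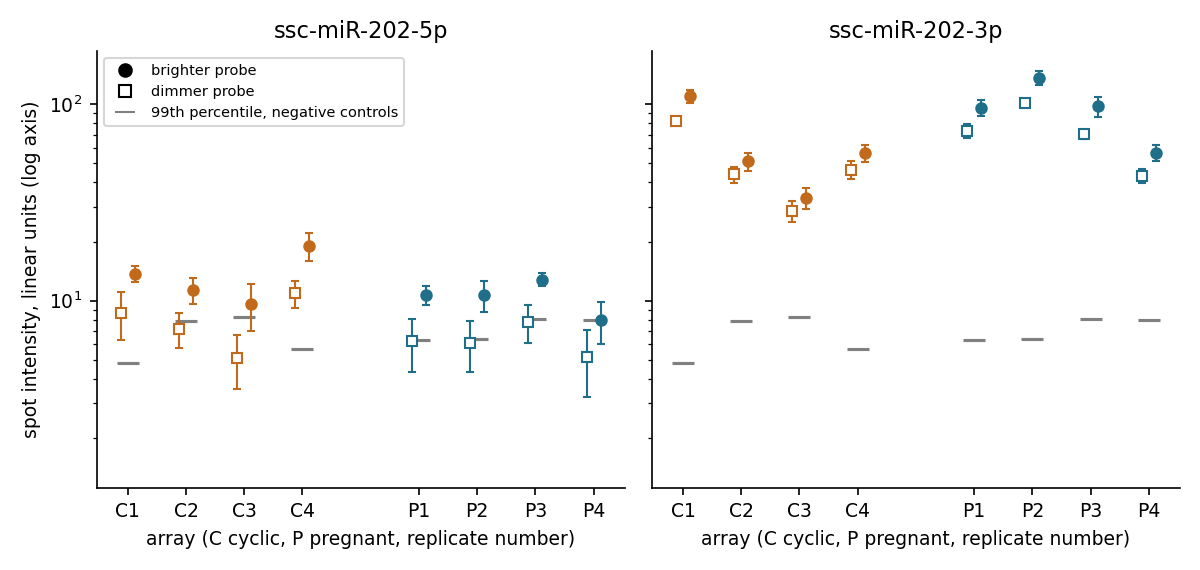
Spot intensity (linear units, log axis) of both probes of each strand on the 4 cyclic (C) and 4 pregnant (P) arrays; points are means of up to 10 spots, bars their SD, and grey dashes the 99th percentile of negative control spots. The 3p probes lie far above the negative controls on every array, while the 5p probes lie near them, between 5.11 and 19.0.

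The first comparison asked whether either strand differed between pregnant and cyclic glands at this day. Neither passed, but the 3p strand divided the cyclic glands. After scaling, its log2 signal was −1.06 in cyclic replicate 1 and −2.54, −2.53 and −2.49 in cyclic replicates 2, 3 and 4. In pregnant replicates 1 to 4 it was −1.51, −0.78, −1.62 and −1.73. Cyclic replicates 2, 3 and 4 thus lay within a narrow band below every pregnant array, and cyclic replicate 1 lay among the pregnant arrays, above 3 of the 4. The group means were −2.15 ± 0.73 and −1.41 ± 0.43 (SD, n = 4 each).

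The 3p strand was 1.67-fold higher in pregnancy on average, a log2 difference of 0.74 ± 0.33 (SE, 95% interval 0.0046 to 1.48). It did not pass limma's test after Benjamini-Hochberg adjustment over all tested targets (adjusted p = 0.142, unadjusted p = 0.0488), nor a 2-sided exact permutation test over samples (p = 0.114, where 4 against 4 can give no less than 0.0286). The difference was the 9th highest of the tested targets, and it ranked 73rd by p. Its spread within groups, an SD of 0.60, was larger than that of 93.9% of the tested targets, whose median was 0.23. The dimmer 3p probe gave a log2 difference of 0.60 ± 0.32.

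Without cyclic replicate 1 the 3p strand was 2.15-fold higher in pregnancy, a log2 difference of 1.11 ± 0.21 that passed limma's test (adjusted p = 0.00247, 3 cyclic and 4 pregnant arrays). The cyclic mean was then −2.52 ± 0.03 (SD, n = 3), all 4 pregnant arrays lay above all 3 cyclic ones (groups lay apart in 41% of tested targets there). Cyclic replicate 1 was the one array of its group within the pregnant range, so leaving it out fixes this separation, and no permutation p is given for it. The limma call is not independent of that choice either, and it belongs to a fit in which many targets passed. With all 8 arrays 24 of the tested targets passed (11.3%), and without cyclic replicate 1 81 did (38.2%), 41 of them higher in pregnancy (19.3%). There the 3p strand had the 5th highest difference and ranked 18th by p. It did not pass when any other array was left out, with differences from 0.53 to 0.85 and adjusted p from 0.184 to 0.338.

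**Figure D2:**
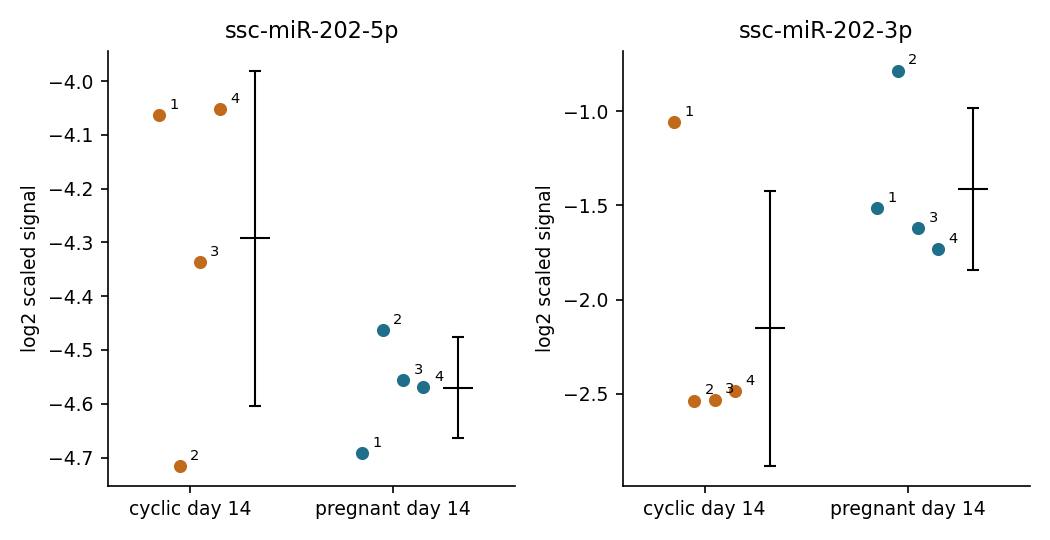
Log2 scaled signal of the brighter probe of each strand by group, each point 1 array with its replicate number, and the mean with SD (n = 4) at the right of each group; the vertical axes differ. For the 3p strand cyclic replicate 1 (−1.06) lies with the pregnant arrays, and cyclic replicates 2 to 4 lie at −2.54 to −2.49.

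The 5p strand showed no rise. Its log2 signal was −4.06, −4.72, −4.34 and −4.05 in cyclic replicates 1 to 4 and −4.69, −4.46, −4.56 and −4.57 in pregnant replicates 1 to 4. The 4 pregnant arrays lay between the lowest cyclic array, replicate 2, and the other 3 cyclic arrays. The 5p strand averaged −4.29 ± 0.31 in the cycle and −4.57 ± 0.09 in pregnancy (SD, n = 4), 0.825 of the cyclic level. The log2 difference of −0.28 ± 0.17 did not pass (limma, adjusted p = 0.292; exact permutation p = 0.200), and its 95% interval ran from −0.66 to 0.11. Of the 8 values, 3 come from arrays on which the strand was not well above background, cyclic replicates 2 and 3 and pregnant replicate 4. Without cyclic replicate 2, the one cyclic array below the pregnant ones, the difference was −0.42 and did not pass limma's test (adjusted p = 0.140); the groups then lay apart, as in 18.9% of tested targets there.

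Of the 2 strands tested, 0 passed limma's test, against 11.3% of all tested targets. With an unadjusted p under 0.05 there was 1, the 3p strand, against 34.4% of all targets, and by exact permutation there were 0. The groups overlapped in both strands, while they lay apart in 36 of the tested targets (17%). The 24 targets that passed were 11 higher and 13 lower. This split became 55 higher and 7 lower when each array was scaled to the 75th percentile over all probes, which raised the median difference of all tested targets by 0.30, and 3 higher and 6 lower with no scaling. Under the scaling over all probes the 3p difference was 1.04 and passed (adjusted p = 0.0387), and the 5p difference was 0.022. Relative to that median shift they were 0.74 (adjusted p = 0.177) and −0.28.

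Slide and scan day were examined as batches, because pregnant replicates 1 and 2 shared slide 1, cyclic replicates 1 and 2 slide 2, and replicates 3 and 4 of both groups slide 3. Slide 1 was scanned on 1 day and the others on another. Within slide 3, with 2 arrays per group, the 3p strand was higher in both pregnant glands and differed by 0.83 ± 0.20 (adjusted p = 0.0749), and the 5p strand by −0.37 ± 0.17 (adjusted p = 0.245). Slide 3 does not hold cyclic replicate 1. The scan day with arrays of both groups does hold it, and there the 3p difference was 0.48 ± 0.40 (adjusted p = 0.518) and the 5p difference −0.27 ± 0.25 (adjusted p = 0.565). Leaving out cyclic replicate 1 within that scan day gave a 3p difference of 0.84 ± 0.24 (adjusted p = 0.0248). Slides 1 and 2 held 1 group each and give no value of their own.

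**Figure D3:**
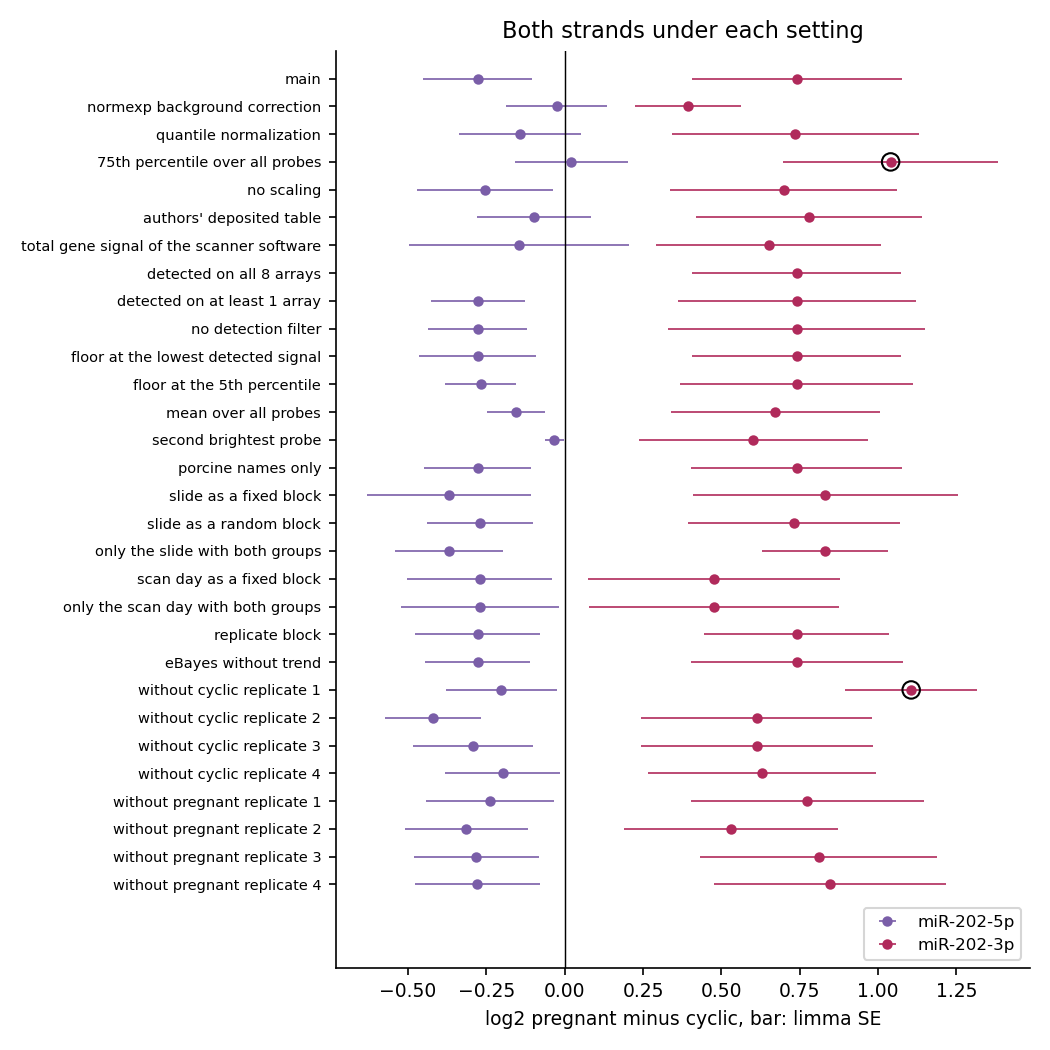
Log2 difference (pregnant minus cyclic) of each strand with all 8 arrays and under each processing alternative; bars are limma's SE, and open circles mark adjusted p under 0.05. The 3p difference is positive in every setting drawn, from 0.39 to 1.11, and passes in 2; the 5p difference passes in none.

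The second comparison asked whether the strands of the hairpin moved unequally. The log2 ratio of 5p to 3p signal was taken on each array, in which any factor that multiplies a whole array cancels. Only its change between groups can be read, since its level depends on the probes. It was −3.01, −2.18, −1.81 and −1.57 in cyclic replicates 1 to 4 and −3.18, −3.68, −2.93 and −2.84 in pregnant replicates 1 to 4. Cyclic replicate 1 fell within the pregnant range, and the other 3 cyclic arrays lay above it.

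The mean strand ratio was −2.14 ± 0.63 in the cycle and −3.16 ± 0.38 in pregnancy (SD, n = 4). In pregnancy the ratio of 5p to 3p was thus 0.494 of its cyclic value, a log2 difference of −1.02, which an exact permutation test did not separate from 0 (2-sided p = 0.0857). With the dimmer 3p probe and the same 5p probe the difference was −0.88 (exact permutation p = 0.0857). Ratios with the dimmer 5p probe are not used, since it was at the floor on 7 of 8 arrays. With normexp background correction and an offset of 50, beside 5p intensities of at most 19.0, the difference was −0.42 (exact permutation p = 0.114). Without cyclic replicate 1 it was −1.31, and the groups lay apart, which again follows from leaving out the one array that overlapped. Within slide 3 it was −1.20, where an exact permutation of 2 against 2 arrays cannot pass the threshold and no other test was run.

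Both strands were tested for 20 hairpins in all. The groups lay apart in the strand ratio in 5 of these (25%) with all arrays, miR-202 not among them, and in 8 (40%) without cyclic replicate 1, miR-202 among them. By absolute size the change in the miR-202 ratio was the 3rd of 20, and the median over the 20 was 0.27. Differences of opposite sign in the 2 strands, as for miR-202, were found in 9 of the 20.

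**Figure D4:**
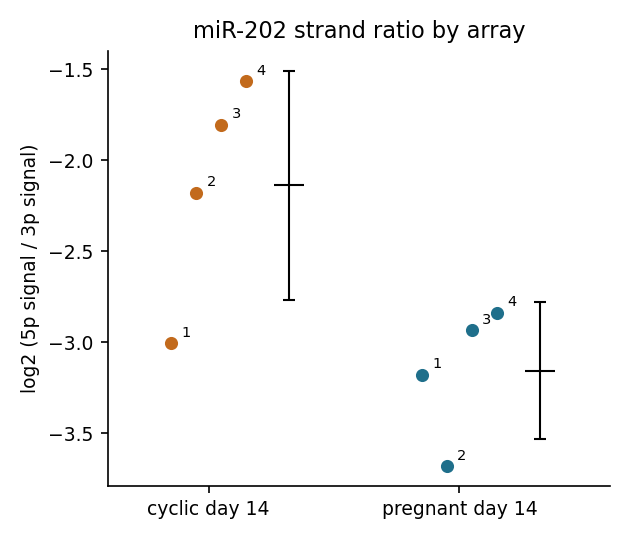
Log2 ratio of the 5p to the 3p signal of miR-202 on each array, with replicate numbers, and the mean with SD (n = 4) at the right of each group. The pregnant arrays lie at −3.68 to −2.84, cyclic replicate 1 at −3.01 and the other cyclic arrays at −2.18 to −1.57.

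Other microRNAs tied to miR-202 by seed or tissue were examined by lists. The let-7 and miR-98 family, which shares part of the 3p seed, had 17 targets on the array and 9 tested. Of these 1 was higher in pregnancy, hsa-let-7b-5p (log2 difference 0.74 ± 0.20, adjusted p = 0.0333), 0 were lower and 8 did not pass, against 11.3% of all tested targets that did. The median difference of the list was 0.27, beside 0.0038 over all tested targets. Without cyclic replicate 1, 5 of the 9 were higher: hsa-let-7b-5p (0.97, adjusted p = 8.79e-05), ssc-let-7c (0.73), ssc-let-7e (0.58), ssc-let-7d-5p (0.57) and ssc-let-7a (0.42). Of all tested targets 19.3% passed as higher there, and 38.2% passed in either direction. The list's median was then 0.42, beside −0.02 over all tested targets. On cyclic replicate 1, let-7b-5p read 2.61, within the pregnant range of 2.48 to 2.86, while the other 3 cyclic arrays read 1.63 to 1.79. The same array therefore lay with the pregnant glands for both miR-202-3p and let-7b-5p. In 51 of the tested targets (24.1%) the other 3 cyclic arrays lay apart from all pregnant ones and cyclic replicate 1 did not join them. It lay within the pregnant range or beyond it on the far side. Such a place of cyclic replicate 1 is thus not particular to miR-202-3p and the let-7 family, and a link between them was not tested.

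A list of granulosa and luteal microRNAs had 35 targets on the array and 22 tested, with a median difference of −0.01. Of these 1 was higher, ssc-miR-503, a cell cycle regulator (1.39 ± 0.32, adjusted p = 0.0226). The 3 lower ones were mmu-miR-21a-3p (−2.18 ± 0.41, adjusted p = 0.0106), ssc-miR-132, which LH induces in granulosa cells (−1.35 ± 0.38, adjusted p = 0.0444) and hsa-miR-125a-3p (−1.16 ± 0.34, adjusted p = 0.0463), and 18 did not pass. Over all tested targets 11.3% passed. Among the 18 were the targets of highest mean signal, ssc-miR-21 (−0.37) and ssc-miR-125b (−0.03). Of the 22, 4 were higher and 6 lower without cyclic replicate 1, against 38.2% of all tested targets that passed there. The list's median was then 0.04. Higher were ssc-miR-503 (1.63), ssc-miR-320 (0.60), hsa-miR-125a-5p (0.50) and ssc-miR-31 (0.47). Lower were mmu-miR-21a-3p (−2.70), ssc-miR-132 (−1.83), hsa-miR-125a-3p (−1.39), ssc-miR-96-5p (−0.88), ssc-miR-335 (−0.87) and ssc-miR-21 (−0.47). With that array left out ssc-miR-125b (−0.09) again did not pass. Of 12 testis and germ line targets 9 were detected on no array, against 65% of all targets. The 2 tested, ssc-miR-34a (0.08) and hsa-miR-513b-5p (0.31), did not pass. The latter passed without cyclic replicate 1 (0.56, adjusted p = 0.0146).

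The targets whose pattern over the 8 arrays was most like that of the 3p strand were hsa-miR-513b-5p (Pearson r = 0.879), ssc-miR-2366 (0.859) and ssc-miR-744 (0.857). Their differences were 0.31, 0.66 and 0.52, and none of the 3 passed with all 8 arrays (limma, adjusted p from 0.0967 to 0.382). Without cyclic replicate 1 they were 0.56, 0.92 and 0.67, and all 3 passed (limma, adjusted p from 0.00142 to 0.0146). Of all tested targets 38.2% passed there. For the 5p strand the targets most alike were ssc-miR-370 (r = 0.747), ssc-miR-181b (0.620) and ssc-miR-9793-5p (0.604). Their differences were −0.25, 0.01 and 0.02, and none passed with or without cyclic replicate 1. Of the targets most like the 3p strand, hsa-miR-513b-5p was detected on 7 arrays and ssc-miR-2366 on 5. Their mean log2 signals, −4.12 and −4.27, lay not far above the floor of −4.85. The 5p strand itself was detected on 5 arrays. All targets share the array and its scaling, and these correlations describe likeness alone.

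Markers of other cells in the gland were read beside the 3p strand. In bulk tissue fewer cells of a type and less RNA per cell cannot be told apart. The neutrophil and monocyte microRNA hsa-miR-223-3p read −3.16 on cyclic replicate 1 and −2.84 to −2.65 on the pregnant arrays, and −0.33, −0.02 and 1.74 on cyclic replicates 2, 3 and 4. It was thus low on the 5 arrays on which miR-202-3p was high. Cyclic replicate 1 lay below the pregnant range here, on the side away from the other cyclic arrays. In 24.1% of tested targets only the other cyclic arrays kept the groups apart. In these, cyclic replicate 1 lay within the pregnant range or beyond it on the far side. The miR-223-3p difference was −2.29 ± 0.76 with all arrays (adjusted p = 0.0768) and −3.19 ± 0.37 without cyclic replicate 1 (adjusted p = 7.54e-05). Of the 16 leukocyte targets on the array 8 were tested and 8 were detected on no array. Of those tested 1 was lower, ssc-miR-155-5p (−0.96 ± 0.25, adjusted p = 0.0324), 0 were higher and 7 did not pass, with a median difference of −0.22, against 11.3% of all tested targets that passed. Among the 7 were hsa-miR-223-3p, ssc-miR-146a-5p (−0.01) and mmu-miR-342-3p (−0.10). Of the 8, 3 were lower without cyclic replicate 1 (38.2% of all tested targets passed there): miR-223-3p, ssc-miR-155-5p (−1.20) and ssc-miR-142-5p (−1.09). The summed signal of the leukocyte list was −0.11 to 2.39 in the cycle and 0.01 to 0.29 in pregnancy (log2), and 1.08 to 2.39 on the 3 cyclic arrays other than replicate 1. The part of leukocytes in the miR-202-3p result was not tested.

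With all 8 arrays no target of the other cell type lists passed. The endothelial list (2 of 2 tested) had a summed signal of 2.65 to 2.90 in the cycle and 2.83 to 3.13 in pregnancy, and the smooth muscle and pericyte list (4 of 4 tested) 0.32 to 0.91 and 0.36 to 0.76. The fibroblast list (5 of 6 tested) ran from 1.84 to 3.09 and from 1.95 to 2.11, with a median difference of −0.45. Red blood cell targets (2 of 4 tested) ran from 0.38 to 2.85 and from 0.37 to 2.63, and epithelial ones (2 of 10 tested) from −2.88 to −2.51 and from −2.94 to −2.63. Of 9 neuroendocrine targets 0 were tested. With all arrays the ranges of the groups overlapped in each of the lists with tested targets. Without cyclic replicate 1, the fit in which miR-202-3p passed, 4 of the 5 fibroblast targets were lower in pregnancy: ssc-miR-199a-3p (−0.70, adjusted p = 0.00660), ssc-miR-199a-5p (−0.76), ssc-miR-199b-3p (−0.52) and ssc-miR-199b-5p (−0.81). The remaining one, ssc-miR-214 (−0.02), did not pass. In that fit 81 of all tested targets passed (38.2%), 40 of them lower. The fibroblast list then ran from 2.21 to 3.09 in the cycle, above the pregnant range. Summed signals of 3 other lists lay apart in that fit too. For let-7 and miR-98 they ran from 4.54 to 4.88 in the cycle and 5.04 to 5.37 in pregnancy. Granulosa and luteal targets ran from 5.83 to 6.28 and 5.53 to 5.72, and leukocyte ones from 1.08 to 2.39 and 0.01 to 0.29. In the remaining lists with tested targets the ranges overlapped. Of the 2 epithelial targets, hsa-miR-203a-3p was lower there (−0.61, adjusted p = 0.0128), and hsa-miR-141-3p did not pass (0.15, adjusted p = 0.567). The former was detected on 4 arrays, and its pregnant mean of −4.83 lay near the floor of −4.85. The part of fibroblasts in the miR-202-3p result was not tested.

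**Figure D5:**
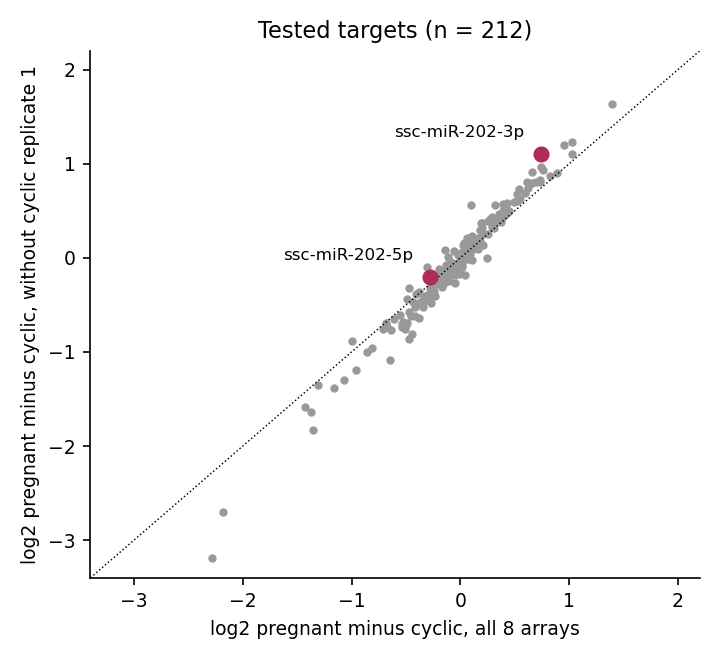
Log2 difference (pregnant minus cyclic) of every tested target with all 8 arrays (horizontal axis) and without cyclic replicate 1 (vertical axis); the dotted line marks equal values, and the 2 fits share 7 arrays. The 3p strand lies above the line, moving from 0.74 to 1.11, and the 5p strand moves from −0.28 to −0.20.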

How the data were processed

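Per the file headers, the deposited intensity of each spot (linear units) had its background subtracted and spatial trend removed by Agilent Feature Extraction 10.7.3.1 (10.7 per the submitters' processing notes), which also set the flags for outlier, saturated and well-above-background spots. Per the labels, each array took 100 ng of Cy3-labelled RNA whose integrity number exceeded 8.

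Control spots (715 per array) and outlier spots (384 to 453 per array, and 4 of the 320 miR-202 spot readings) were left out. Spots of a probe were averaged, divided by the array's 75th percentile over the 166 targets detected on all arrays, floored at 0.0346 (the 1st percentile of detected probes), and log2 was taken. A target was detected where at least 0.5 of the spots of any of its probes were well above background, and its probe of highest mean was used. Targets detected on at least 4 arrays were tested with limma 3.58.1 (lmFit, eBayes, trend, 2-sided) under R 4.3.3, adjusted by Benjamini-Hochberg at 0.05, and the fit was checked on simulated data. Groups and replicate numbers came from the labels. Alternatives were other background corrections, scalings, value columns, detection filters, floors and probes, slide, scan day or replicate as a block, and each array left out. Single values were tested by exact permutation of the samples. The labels state no test, and the number of arrays limits the precision. No count of molecules underlies these values, so no counting interval is given.

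The authors' deposited table, used only as an alternative, holds 1 log2 value per spot, centred on that spot's median (13717 of 13720 within 0.001 of 0). It runs in the direction of the scanner values (r from 0.878 to 0.974 over 2806 bright spots). The deposited columns of cyclic replicates 2 and 4 were entered as score, since 3 of their cells exceed 100 and were set to missing; otherwise they are log2 values too. Column medians were 0.0108, −0.00028, 0.00069 and −0.00021 for cyclic and −0.00030, 9.45e-05, −9.45e-05 and 0.0318 for pregnant replicates 1 to 4. The scaling between arrays stays unknown.

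Named targets were the miR-202 probes, the 3 targets most alike to each strand, and of each list those that passed and up to 4 of the highest signal. The members and lists were chosen with earlier results of these data known. Target names are those of the array design, and miR-202 sequences were not used here. Same-numbered samples were not paired in the main fit, since the labels do not say that the numbers pair animals. Their deviations from the group means correlated by 0.10, 0.10, −0.18 and 0.16. With 4 arrays per group these values cannot decide whether the samples were paired. Plots used matplotlib 3.10.9 (Python 3.11.15).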

Additional observations from a re-analysis of the deposited data

Results flagged for a closer look

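Within the cyclic group the 3p strand of miR-202 on cyclic replicate 1 lay far from the other 3 arrays by Dixon's criterion. The log2 signal there was −1.06 for the brighter probe, where the gap to the nearest array was 0.966 of the group's whole range, and −1.47 for the dimmer probe, where it was 0.992, both above the criterion's 95% critical value for 4 samples. The probes share 1 RNA sample and are not independent of each other. Chance flags about 1 in 20 groups, and 8 groups of values were examined.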

How the results depend on the processing

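The 3p difference was positive and the strand difference negative under every alternative run. With normexp (offset 50) the strand difference was −0.42 and the 5p difference −0.03, and with the authors' table the 5p difference was −0.10. Leaving out 1 array gave 0.53 to 1.11 for the 3p strand, −0.42 to −0.20 for the 5p strand, −1.31 to −0.83 for the strand ratio and 7 to 81 targets. Of 21 other settings the 3p strand passed in 1, scaling over all probes (1.04), where the 5p difference turned to 0.022 (adjusted p = 0.933) and 62 targets passed. That scaling moved the median of all tested targets by 0.30, and relative to it the strands differed by 0.74 and −0.28. Chosen after seeing the data, fits without cyclic replicate 1 passed for the 3p strand with quantile normalization (1.15), the authors' table (1.18), total gene signal (1.01), the second brightest probe (0.92), normexp (0.60) and within 1 scan day (0.84). The count of 24 became 11 with normexp, 9 with no scaling, 10 with total gene signal, 11 with detection on at least 1 array, 1 with no filter, 11 with the floor at the 5th percentile, 3 with the second probe, 9 within slide 3 and 2 with or within scan day; the causes were not tested. With the replicate number as a block the 3p difference was 0.74 (adjusted p = 0.135), the 5p difference −0.28 (adjusted p = 0.378), the strand difference −1.02 and the count 26, of which 22 were among the 24 called without it; the replicate block changed neither strand's call. The 5p strand had no value under detection on all 8 arrays, and its nearness to background limits every 5p value.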

Other observations

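In 51 of the tested targets (24.1%), among them miR-202-3p, cyclic replicates 2 to 4 lay apart from all 4 pregnant arrays. Cyclic replicate 1 lay within the pregnant range in these, or beyond it on the far side. This count was made after the values were seen.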
